A study of Homo sapiens with 18 samples.

Results

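The 31 genes of DNA replication and S phase described here were followed across gene-level arrays of LNCaP and VCaP, human prostate cancer cell lines that grow in response to androgen. The list holds MCM2 to MCM7, MCM10, PCNA, RRM1, RRM2, TYMS, E2F1, CCNE1, CCNE2, CDC6, CDT1, GINS1, GINS2, CDC45, FEN1, RFC3, RFC4, POLA1, PRIM1, CHAF1A, TK1, UHRF1, ORC1, POLE2, DSCC1 and CLSPN. The rule lists members by name and uses no measured value, but the list was drawn up with earlier results of these data known. They are 31 of 18417 genes on the array, all 31 had a transcript cluster with a single gene symbol, and all 31 stayed among the 13813 genes tested after the 25% of genes with the lowest mean signal were left out.

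Replication origins are bound by the origin recognition complex, which with CDC6 and CDT1 loads the ring of MCM proteins before S phase. Cyclin E with its kinase, and further kinases, then turn this ring into a running helicase by adding CDC45 and the GINS complex, and polymerases follow with their sliding clamp. E2F transcription factors switch on most of these genes together at the end of G1, so their RNA level usually tracks the share of cells that are cycling. In bulk samples such as these, fewer cells in S phase and less of each RNA per cell cannot be told apart.

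The study asked how androgen-dependent expression changes when CTBP1-AS or PSF is knocked down. CTBP1-AS is the antisense transcript of CTBP1, which encodes a corepressor, and PSF is an RNA-binding protein encoded by SFPQ. Cells received siRNA against CTBP1-AS (siCTBP1-AS), siRNA against PSF (siPSF) or a control siRNA (siControl), and 48 h later R1881, a synthetic androgen, or ethanol as vehicle. Before hormone they were held for 3 days in medium with charcoal-treated serum, which removes steroids, at 2.5% for LNCaP and 5% for VCaP. The 18 arrays formed 4 sets, with 1 array for each siRNA and treatment in a set. VCaP held siCTBP1-AS, siPSF and siControl at 1 nM R1881, LNCaP set 3 held siPSF and siControl at 10 nM, LNCaP set 1 held siCTBP1-AS and siControl at 10 nM, and LNCaP set 2 held siCTBP1-AS and siControl at 1 nM. The siCTBP1-AS arrays of set 2 and VCaP carry a number mark in their names, and the sources used here explain neither this mark nor how long R1881 was applied.

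Values are log2 signals from the RMA method, which the submitters ran with the array maker's software. Array medians spanned 6.22 to 6.28 for VCaP, 6.75 to 6.85 for set 3, 6.69 to 6.71 for set 1 and 5.73 to 5.75 for set 2, so levels were compared inside 1 set, except where the labels group LNCaP siControl arrays across sets. All 5 tested genes of an androgen check list, KLK3 and STEAP4 among them, rose with R1881 in each of the 4 sets. SFPQ, the siPSF target, fell by 1.44 in VCaP (SE 0.10, adjusted p = 0.000118) and by 0.79 in set 3 (SE 0.10, adjusted p = 0.00434) in limma's fit, while CTBP1-AS itself was not analysed here. Of 10 luminal prostate markers, 8 were measured, at a median percentile within an array of 95.7 in LNCaP and 98.0 in VCaP. The measured basal, fibroblast and leukocyte markers had median percentiles of 34.3, 33.2 and 16.9 in LNCaP and of 28.2, 28.5 and 26.0 in VCaP. The leukocyte markers ran from PTPRC at 2.50 to CD68 at 73.3 in LNCaP, and from PTPRC at 1.78 to CD68 at 43.2 in VCaP. Since the labels name no separate cultures, a p-value here reflects the scatter among these arrays alone, possibly technical in part, and the number of arrays limits the precision.

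R1881 was compared with vehicle within each pair of arrays that share a set and an siRNA. In VCaP at 1 nM all 31 genes fell (limma, Benjamini-Hochberg adjusted p under 0.05). Of all genes tested, 16.7% fell and 15.2% rose. The median log2 difference of the 31 genes was -1.40, against 0.01 over all genes, and the single differences ran from -2.02 for MCM4 to -0.48 for CCNE1. In all 31 genes the 3 R1881 arrays lay below the 3 vehicle arrays, a pattern that 17.2% of all genes showed, while 17.9% showed its opposite. The 3 pairs differ in siRNA and stand in as replicates of the hormone comparison, with medians over the 31 genes of -1.23 with siCTBP1-AS, -1.31 with siPSF and -1.61 with siControl.

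**Figure D1:**
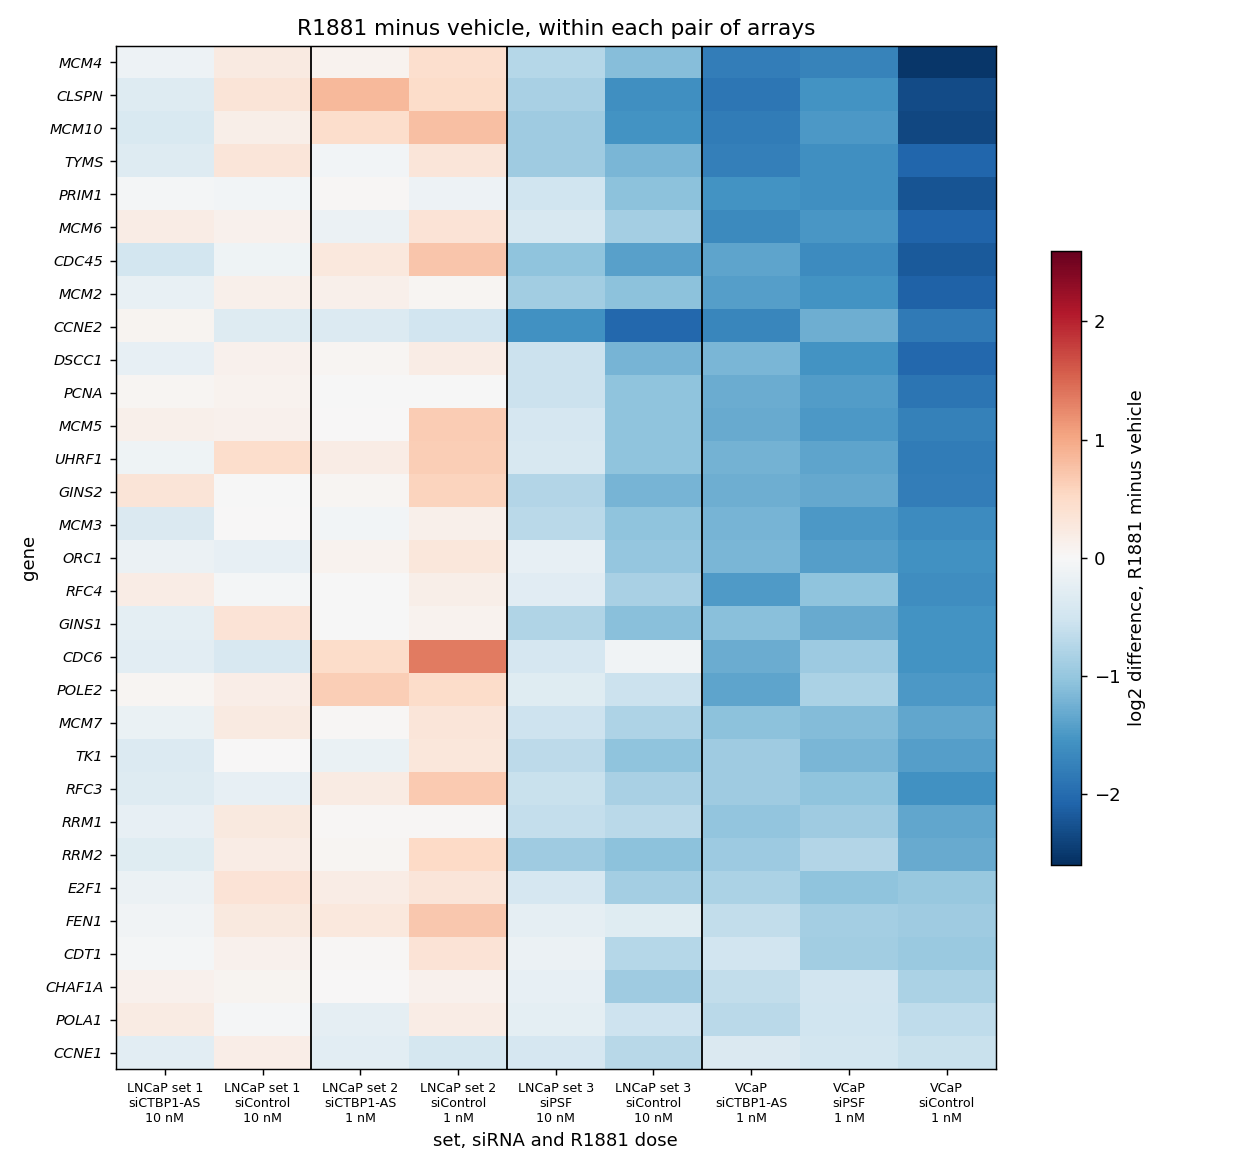
Log2 difference of R1881 minus vehicle for the 31 genes (rows) in each of the 9 array pairs (columns, by set, siRNA and dose). All 31 genes were below 0 in the 3 VCaP pairs and in both pairs of LNCaP set 3, while the pairs of sets 1 and 2 held values on both sides of 0.

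The helicase genes fell in VCaP by values that ran from -2.02 for MCM4 to -1.18 for MCM7. Values below are for siCTBP1-AS, siPSF and siControl in that order. MCM4, a subunit of the MCM ring, had signals of 8.16, 8.51 and 7.58 in R1881 and of 9.95, 10.24 and 10.11 in vehicle. MCM6 had 7.32, 7.88 and 7.23 in R1881 against 8.97, 9.40 and 9.31 in vehicle, and MCM2 had 7.44, 7.77 and 7.05 against 8.87, 9.33 and 9.15. The siControl array was the lowest R1881 array of each of these subunits. MCM4 fell by 2.02 (SE 0.16, 4.05-fold, adjusted p = 2.17e-05), MCM6 by 1.75 (SE 0.14, adjusted p = 2.24e-05) and MCM2 by 1.70 (SE 0.12, adjusted p = 1.68e-05) in limma's fit. MCM5, MCM3 and MCM7, the other ring subunits, fell by 1.52, 1.45 and 1.18. MCM10, which helps to start the helicase, had 6.69, 7.59 and 6.39 in R1881 against 8.51, 9.09 and 8.75 in vehicle, and fell by 1.89 (SE 0.18, adjusted p = 5.56e-05). CDC45, which joins the ring when it fires, had 8.23, 8.51 and 7.40 in R1881 against 9.61, 10.14 and 9.59 in vehicle, and fell by 1.73 (SE 0.16, adjusted p = 4.7e-05). GINS2 and GINS1, subunits of the GINS complex, fell by 1.46 and 1.32.

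Genes of origin licensing also fell. ORC1, the largest subunit of the origin recognition complex, fell by 1.40 (SE 0.14). CDC6 and CDT1, which load the MCM ring, fell by 1.26 (SE 0.16) and 0.79 (SE 0.13). CLSPN, an adaptor of the replication checkpoint kinase, had 5.88, 6.44 and 5.13 in R1881 against 7.76, 8.00 and 7.45 in vehicle. It fell by 1.92 (SE 0.18, 3.79-fold, adjusted p = 6.3e-05 by limma), next in size after MCM4. A second, dimmer CLSPN cluster fell less, with R1881 minus vehicle at -1.31, -1.01 and -1.54, so this rank depends on the cluster used.

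Among the polymerase genes the primase subunit fell most. PRIM1, the catalytic subunit of primase, had 8.69, 8.77 and 8.25 in R1881 against 10.24, 10.36 and 10.50 in vehicle, and fell by 1.79 (SE 0.14, adjusted p = 2.51e-05 by limma). POLA1, the catalytic subunit of the polymerase that works with primase, fell by 0.63 (SE 0.11, adjusted p = 0.00155), and POLE2, an accessory subunit of the leading-strand polymerase, by 1.23 (SE 0.12). PCNA, the sliding clamp, averaged 8.85 ± 0.38 in R1881 and 10.39 ± 0.13 in vehicle (SD, n = 3 arrays each, 1 per siRNA) and fell by 1.55 (SE 0.12). RFC4 and RFC3, subunits of the clamp loader, fell by 1.38 and 1.18, and DSCC1, part of an alternative clamp loader that acts in sister chromatid cohesion, by 1.59. FEN1, the nuclease that trims Okazaki fragments, fell by 0.82 (SE 0.11). CHAF1A, a subunit of the chromatin assembly factor that travels with PCNA, fell by 0.66 (SE 0.12), and UHRF1, which guides DNA methylation after replication, by 1.47 (SE 0.16).

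Nucleotide supply and the G1/S regulators showed the widest spread. TYMS, which makes thymidylate, had 8.75, 9.18 and 8.66 in R1881 against 10.54, 10.78 and 10.73 in vehicle and fell by 1.82 (SE 0.14, 3.52-fold, adjusted p = 2.05e-05 by limma). TK1, the salvage enzyme for thymidine, fell by 1.18 (2.27-fold). RRM1 and RRM2, the subunits of ribonucleotide reductase, fell 2.14-fold and 2.01-fold. E2F1, a transcription factor of the G1/S switch, averaged 8.25 ± 0.19 in R1881 and 9.20 ± 0.19 in vehicle (SD, n = 3 each) and fell by 0.95 (SE 0.12). CCNE2 and CCNE1 encode the cyclin E proteins. CCNE2 fell by 1.60 (SE 0.13), whereas CCNE1 had 6.46, 6.04 and 6.13 in R1881 against 6.84, 6.52 and 6.70 in vehicle. CCNE1 fell by 0.48 (SE 0.10, adjusted p = 0.00655 by limma), the smallest change of the 31, and its highest R1881 array lay just under its lowest vehicle array.

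**Figure D2:**
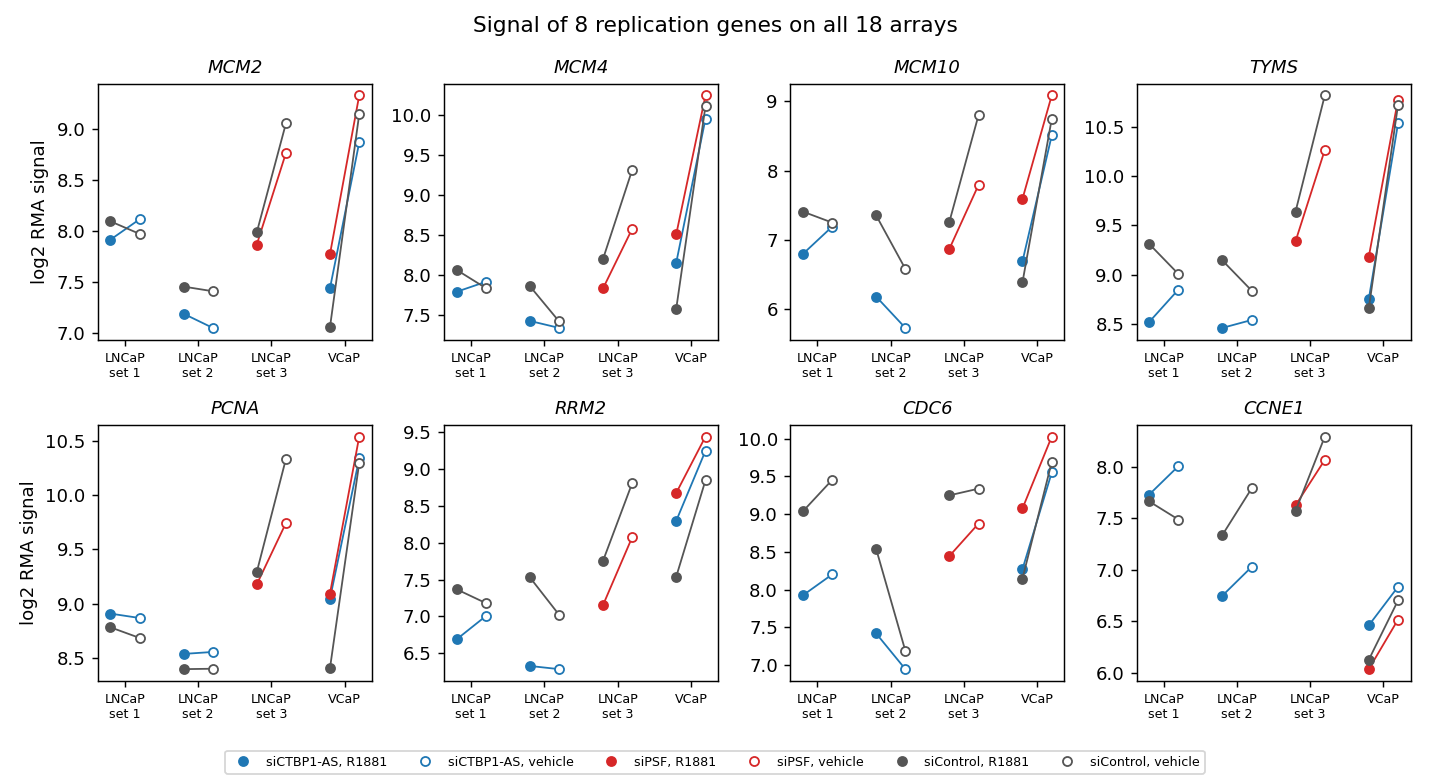
Log2 RMA signal of 8 of the genes on all 18 arrays, with R1881 (filled) left of vehicle (open) in each set and a line joining the arrays of 1 siRNA. In VCaP every R1881 array lay below every vehicle array for these 8 genes, and CCNE1 shows the smallest step (log2 difference -0.48).

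Because the genes moved together, their promoters were searched for short motifs. Of the 31 genes, 27 matched a promoter window of 300 bases (250 before and 50 after the gene start, RefSeq, GRCh38.p14), and MCM4, MCM5, CCNE2 and DSCC1 did not. The E2F motif was taken as TTTCCCGC, TTTCGCGC, TTTGCCGC or TTTGGCGC on either strand. It stood in 16 of the 27 windows, or 59.3%, against 5.18% of the 10910 windows of all tested genes. The 11 genes without it were CCNE1, CDC45, CHAF1A, FEN1, MCM10, ORC1, PRIM1, RFC4, RRM1, RRM2 and TK1. The median R1881 difference in VCaP was -1.39 for the genes with it and -1.18 for those without. The CCAAT box, written CCAAT, stood in 66.7% against 36.2%, and the GC box, written GGGCGG, in 74.1% against 68.7%, both on either strand. The androgen receptor half-site, written AGAACA and also searched on either strand, stood in 2 of the 27 windows, or 7.41%, against 8.87%. A match describes the letters of the window and does not show that a factor binds there.

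The windows of 6 genes are shown, 5 with an E2F match and that of CCNE1, which fell least and has none. These 6 do not stand for all 27, of which 11 hold no match. The matches are in capitals. MCM6 has 2 places where a match on one strand overlaps a match on the other, and MCM2 has 1 such place. MCM6 lies at chr2:135876394-135876693 on the minus strand, MCM2 at chr3:127598161-127598460 on the plus strand and MCM3 at chr6:52284693-52284992 on the minus strand. CLSPN lies at chr1:35769929-35770228 on the minus strand, CDC6 at chr17:40287629-40287928 on the plus strand and CCNE1 at chr19:29811741-29812040 on the plus strand.
MCM6: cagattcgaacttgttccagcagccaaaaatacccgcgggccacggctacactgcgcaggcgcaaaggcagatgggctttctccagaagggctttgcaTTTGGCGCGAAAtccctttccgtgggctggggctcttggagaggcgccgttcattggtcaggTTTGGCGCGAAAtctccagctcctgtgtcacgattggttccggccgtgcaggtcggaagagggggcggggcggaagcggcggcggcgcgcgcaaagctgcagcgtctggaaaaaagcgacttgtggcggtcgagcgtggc
MCM2: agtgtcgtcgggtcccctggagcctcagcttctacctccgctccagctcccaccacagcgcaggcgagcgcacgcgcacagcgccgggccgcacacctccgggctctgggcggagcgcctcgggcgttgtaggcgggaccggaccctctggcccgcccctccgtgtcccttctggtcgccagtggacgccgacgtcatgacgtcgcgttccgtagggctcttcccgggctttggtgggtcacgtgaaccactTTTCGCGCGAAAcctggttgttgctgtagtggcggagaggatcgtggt
MCM3: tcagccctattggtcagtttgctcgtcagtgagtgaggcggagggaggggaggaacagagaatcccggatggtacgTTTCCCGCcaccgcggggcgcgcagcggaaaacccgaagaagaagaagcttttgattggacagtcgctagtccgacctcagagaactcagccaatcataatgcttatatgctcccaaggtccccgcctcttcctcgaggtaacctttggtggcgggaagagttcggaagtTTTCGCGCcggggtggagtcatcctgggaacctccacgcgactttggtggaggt
CLSPN: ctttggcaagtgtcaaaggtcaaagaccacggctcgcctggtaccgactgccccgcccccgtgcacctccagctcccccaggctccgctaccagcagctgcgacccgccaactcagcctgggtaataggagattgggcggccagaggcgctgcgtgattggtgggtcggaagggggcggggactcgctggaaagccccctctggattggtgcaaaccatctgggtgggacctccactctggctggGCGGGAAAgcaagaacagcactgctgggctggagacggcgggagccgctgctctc
CDC6: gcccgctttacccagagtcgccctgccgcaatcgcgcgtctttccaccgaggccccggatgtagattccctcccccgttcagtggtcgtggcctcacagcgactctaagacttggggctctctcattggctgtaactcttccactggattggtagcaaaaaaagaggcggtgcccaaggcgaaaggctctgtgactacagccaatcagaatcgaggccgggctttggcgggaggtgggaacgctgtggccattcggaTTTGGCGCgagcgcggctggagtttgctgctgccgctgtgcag
CCNE1: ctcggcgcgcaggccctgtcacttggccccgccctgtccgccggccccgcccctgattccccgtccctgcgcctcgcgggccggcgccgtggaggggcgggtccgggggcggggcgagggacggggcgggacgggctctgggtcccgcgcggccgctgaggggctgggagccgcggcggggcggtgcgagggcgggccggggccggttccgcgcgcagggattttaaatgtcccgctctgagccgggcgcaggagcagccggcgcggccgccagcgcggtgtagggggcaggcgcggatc
The window of CCNE1 holds 7 GC boxes, against 4 in that of CLSPN, 2 each in those of MCM6 and MCM2 and 0 in those of MCM3 and CDC6.

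In LNCaP set 3, at 10 nM, 26 of the 31 genes fell with R1881, against 5.73% of all genes tested, and 0 rose, against 6.82%. The median of the 31 genes was -0.75, against -0.03 over all genes, with a range of -1.81 for CCNE2 to -0.26 for CDC6. The 5 genes that did not pass were CDT1, POLE2, POLA1, FEN1 and CDC6, at -0.45, -0.43, -0.39, -0.28 and -0.26. The R1881 arrays lay below the vehicle arrays in 28 of 31 genes, all but CDC6, FEN1 and POLE2, against 25.6% of all genes, and above them in 0, against 20.1%. All 31 genes were below 0 in both pairs, with a median of -0.55 in the siPSF pair and -1.05 in the siControl pair. Of all genes, 54.7% were below 0 in the siPSF pair and 56.6% in the siControl pair. The count rested on both pairs, since 1 gene passed without the siControl pair and 17 without the siPSF pair.

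CCNE2 moved most in set 3. Its signals were 8.52 with siPSF and 7.95 with siControl in R1881, against 10.09 with siPSF and 9.99 with siControl in vehicle, and it fell by 1.81 (SE 0.16, 3.5-fold, adjusted p = 0.000312 by limma). The other cyclin E gene, CCNE1, averaged 7.60 ± 0.04 in R1881 and 8.18 ± 0.16 in vehicle (SD, n = 2 each) and fell by 0.58 (SE 0.13). MCM10 had 6.87 with siPSF and 7.26 with siControl in R1881, against 7.79 and 8.80 in vehicle, and fell by 1.24 (SE 0.22, adjusted p = 0.00576). Values that follow are again for siPSF and then siControl. CDC45 had 7.40 and 7.76 in R1881 against 8.45 and 9.16 in vehicle, and fell by 1.23 (SE 0.19). CLSPN had 5.50 and 5.60 in R1881 against 6.34 and 7.19 in vehicle, and fell by 1.22 (SE 0.22). In each of these the siControl pair had the larger step. TYMS had 9.34 and 9.64 in R1881 against 10.27 and 10.82 in vehicle, RRM2 had 7.15 and 7.75 against 8.08 and 8.81, and GINS2 had 9.04 and 9.28 against 9.81 and 10.48. MCM2 had 7.87 and 7.99 in R1881 against 8.77 and 9.06 in vehicle. These genes fell by 1.05 (TYMS), 0.99 (RRM2), 0.99 (GINS2) and 0.99 (MCM2), with limma adjusted p of 0.00406, 0.00484, 0.00617 and 0.0034. CDC6 overlapped between treatments, with 8.44 and 9.25 in R1881 and 8.88 and 9.34 in vehicle (difference -0.26, SE 0.20, adjusted p = 0.48).

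Across the 31 genes the R1881 differences of VCaP and set 3 had a Pearson r of 0.61 and a Spearman rho of 0.69, given as a description because genes do not vary independently. The difference was more negative in VCaP for 29 genes. CCNE2 and CCNE1 were the exceptions, at -1.60 and -0.48 in VCaP against -1.81 and -0.58 in set 3. Line, dose, serum, the siRNAs of the pairs and the set of arrays itself differ between VCaP and set 3, and the differences between them were not tested.

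**Figure D3:**
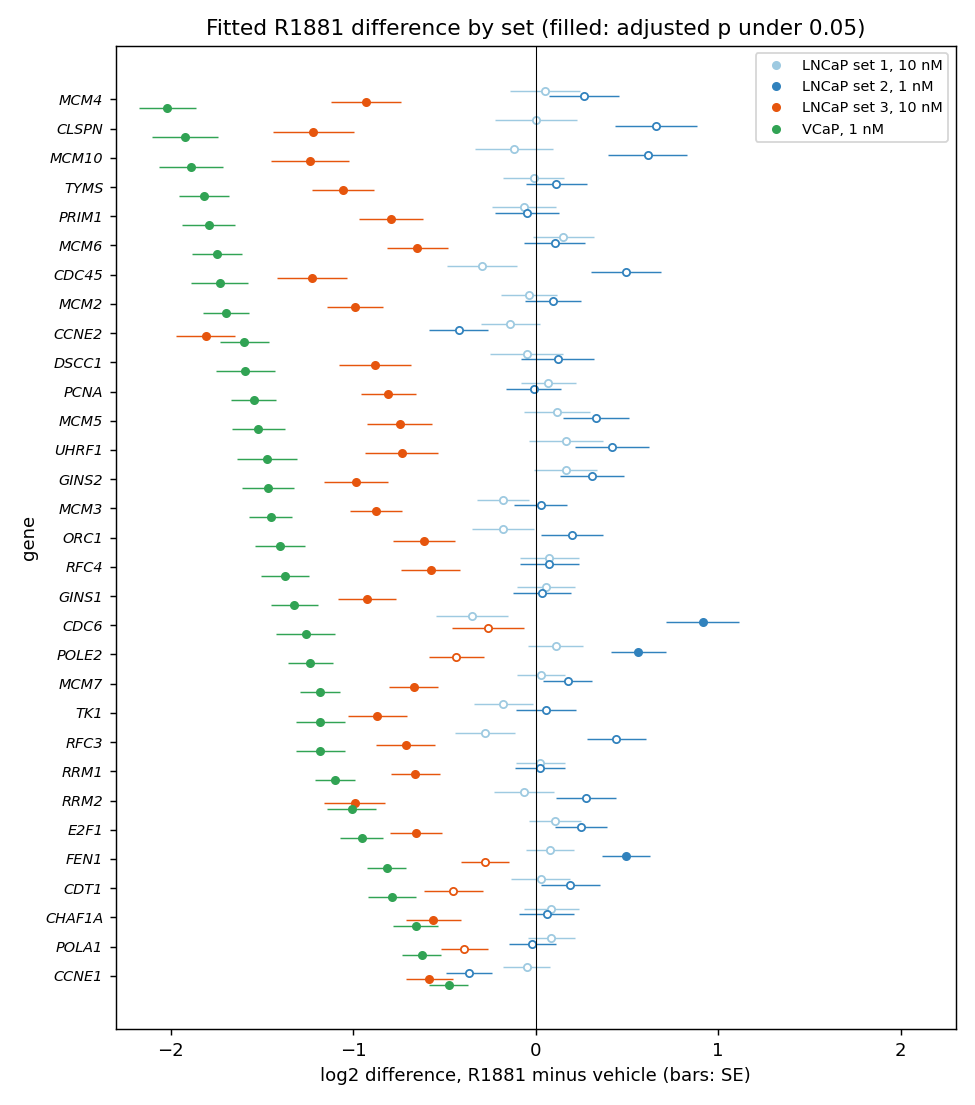
Fitted log2 difference of R1881 minus vehicle for each gene by set, with the SE as bars and filled points where limma's adjusted p was under 0.05. VCaP has 31 filled points, all below 0, set 3 has 26 below 0, set 2 has 3 above 0 and set 1 has 0.

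In LNCaP set 1, also at 10 nM, 0 of 31 genes passed limma's test, against 1.04% of all genes lower and 2.42% higher. At an unadjusted p under 0.05 there were 0 of the 31 and 1992 of all 13813 genes. The median of the 31 was 0.03. Its siCTBP1-AS pair had 22 genes below 0 and its siControl pair 9, against 47.7% and 53.2% of all genes. The smallest p was that of CDC6, whose signals were 7.92 with siCTBP1-AS and 9.04 with siControl in R1881 and 8.20 and 9.45 in vehicle (difference -0.35, SE 0.20, adjusted p = 0.507 by limma). RFC3 had 8.55 and 8.76 in R1881 against 8.89 and 8.98 in vehicle (difference -0.28, SE 0.16), and CDC45 had 7.12 and 7.73 against 7.59 and 7.84 (difference -0.29, SE 0.19). The 95% interval of the CDC6 difference ran from -0.79 to 0.09, so a difference in either direction could not be told from 0.

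In LNCaP set 2, at 1 nM, 3 genes rose and 0 fell, against 4.47% of all genes higher and 3.54% lower. Of the 31 genes 9 had an unadjusted p under 0.05, against 3367 of all 13813. CDC6 had 7.42 with siCTBP1-AS and 8.54 with siControl in R1881, against 6.95 and 7.19 in vehicle, a rise of 0.91 (SE 0.20, adjusted p = 0.0229 by limma). FEN1 had 7.59 and 8.28 in R1881 against 7.31 and 7.57 in vehicle and rose by 0.50 (SE 0.13, adjusted p = 0.0479). POLE2 had 6.90 and 6.85 in R1881 against 6.25 and 6.37 in vehicle and rose by 0.56 (SE 0.15, adjusted p = 0.0485). The R1881 arrays lay above the vehicle arrays in all 3, by a narrow margin in FEN1. This describes genes already called, and the share of all genes with that pattern was not computed for set 2. CCNE2 and CCNE1 had the lowest differences of this set, -0.42 (adjusted p = 0.147) and -0.37 (adjusted p = 0.114). These calls depended on which arrays were used, since 0 of the 31 genes passed without the siControl pair, 2 without the siCTBP1-AS pair and 0 with only the arrays of set 2 in the fit. CD68, 1 of 2 tested leukocyte markers, also rose there (0.54), and its part in the result was not tested.

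The labels group the LNCaP siControl arrays as 3 of R1881 and 3 of vehicle, 1 from each set, so this comparison sets levels of separately scaled sets side by side. In that comparison 0 of 31 genes passed limma's test, against 0.029% of all genes lower and 0.224% higher. On simulated data this comparison recovered 1% of changes of 1 log2 unit and 84% of changes of 2. Of 5 androgen check genes 4 passed, and KLK3 did not (1.57, SE 0.56, adjusted p = 0.989 by limma). The count of 0 thus does not show that the 31 genes were unchanged. An unadjusted p under 0.05 was reached by 0 of the 31 and by 322 of all 13813 genes. The median of the 31 was -0.20. That median turned on set 3, since it was 0.23 without its arrays, against -0.34 without those of set 1 and -0.44 without those of set 2. CCNE2 had the smallest p, with 8.03, 8.03 and 7.95 in R1881 and 8.38, 8.52 and 9.99 in vehicle in sets 1, 2 and 3 (difference -0.96, SE 0.49, adjusted p = 1.00 by limma). Within each set its R1881 array lay below its vehicle array. PRIM1 had 8.74, 8.42 and 8.82 in R1881 and 8.82, 8.56 and 9.88 in vehicle, and CCNE1 had 7.66, 7.34 and 7.57 in R1881 and 7.49, 7.79 and 8.29 in vehicle. Arrays of the same labelled condition thus gave medians over the 31 genes of 0.12 in set 1 and -1.05 in set 3, both siControl at 10 nM.

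The R1881 differences of sets were compared with each other, first at matched doses. For VCaP minus LNCaP set 2, both at 1 nM, 28 of 31 genes were lower, against 4.66% of all genes, and 0 higher, against 3.14%, with a median of -1.60. The largest differences were those of CLSPN (-2.58, SE 0.29, adjusted p = 0.000993), MCM10 (-2.50, SE 0.28) and MCM4 (-2.28, SE 0.25) by limma. CLSPN averaged 4.64 in set 2 vehicle, below the array medians of 5.73 to 5.75. Its second cluster, which fell less in VCaP, was not fitted on its own. CHAF1A (-0.72, adjusted p = 0.0533), POLA1 (-0.61, adjusted p = 0.0546) and CCNE1 (-0.11, adjusted p = 0.758) did not pass. The 95% interval of the CCNE1 difference was -0.48 to 0.26. The line, the serum, the siRNAs of the pairs and the set of arrays itself differ in this contrast and cannot be told apart. For set 3 minus set 1, both LNCaP at 10 nM, 0 of 31 genes passed, against 0.00724% of all genes lower and 0.0217% higher. The median was -0.76, and 26 of the 31 had an unadjusted p under 0.05, against 1484 of all 13813 genes. The lowest adjusted p by limma was 0.06 for CCNE2 (-1.67, SE 0.23, interval -2.19 to -1.15). Beside the siControl pair, set 3 holds a siPSF pair and set 1 a siCTBP1-AS pair, and the contrast averages both pairs of a set. The siControl pairs, which share line, siRNA and dose, had medians over the 31 genes of -1.05 in set 3 and 0.12 in set 1. Those of the knockdown pairs were -0.55 and -0.15. What set the 2 sets apart was not tested. For set 1 minus set 2, which differ in dose and in the marking of their siCTBP1-AS arrays, 0 of 31 genes and 0 of all genes passed limma's test, with 5 and 1208 at an unadjusted p under 0.05 and a median of -0.16.

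The rank of the genes within each array was also set beside these results. In VCaP the median percentile of the 31 genes among all 18417 was 60.7 to 69.7 in R1881 and 79.6 to 83.4 in vehicle. In set 3 it was 60.3 with siPSF and 60.0 with siControl in R1881, against 67.7 and 73.6 in vehicle. In set 1 the range over both treatments was 61.0 to 65.1, and in set 2 it was 61.1 to 65.6. The vehicle arrays of VCaP and set 3 thus ranked these genes above all arrays of sets 1 and 2, while 3 of their R1881 arrays lay at 60.0 to 60.7, just below those sets, and the VCaP R1881 arrays with siCTBP1-AS and siPSF lay above them at 66.0 and 69.7. What set the vehicle arrays apart was not tested.

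**Figure D4:**
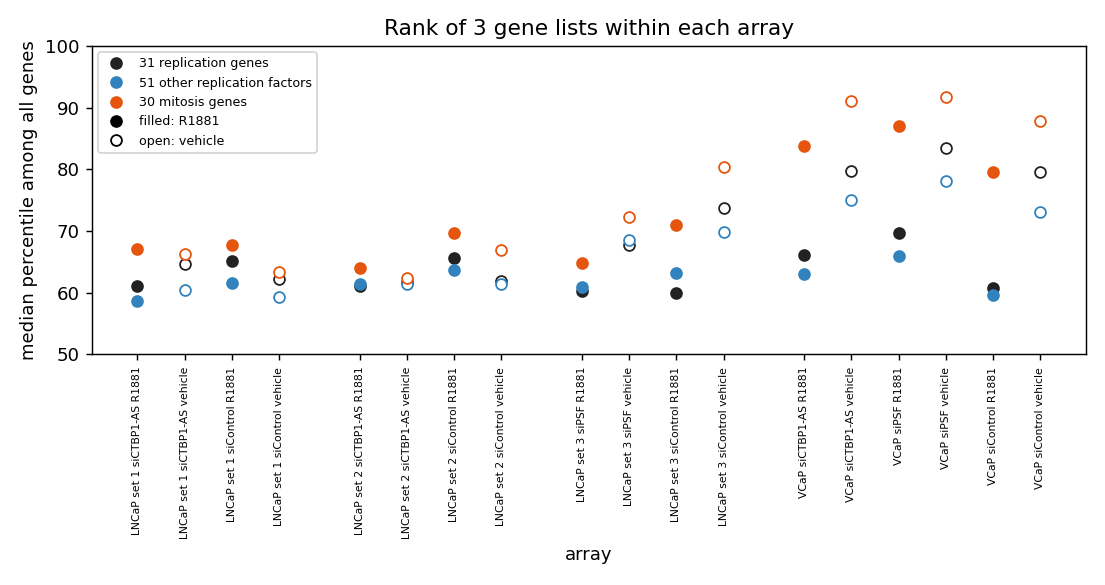
Median percentile within each array of the 31 genes, of 51 other replication factors and of 30 mitosis genes, for R1881 (filled) and vehicle (open). The vehicle arrays of VCaP (79.6 to 83.4 for the 31 genes) and of set 3 (67.7 and 73.6) stand above the arrays of sets 1 and 2.

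Each knockdown was compared with siControl within a set and averaged over R1881 and vehicle, which stand in as its replicates. Values of a knockdown are given for R1881 and then vehicle. With siPSF in VCaP, 6 of 31 genes rose, against 2.32% of all genes, 0 fell, against 3.67%, and the median was 0.44. There 21 of the 31 had an unadjusted p under 0.05, against 2843 of all 13813 genes. CLSPN had 6.44 and 8.00 with siPSF against 5.13 and 7.45 with siControl, and rose by 0.93 (SE 0.22, adjusted p = 0.0386 by limma). RRM2 had 8.67 and 9.44 with siPSF against 7.54 and 8.85 with siControl, and rose by 0.86 (SE 0.17, adjusted p = 0.0148). The step was larger in R1881 than in vehicle for both. CDC45 had 8.51 and 10.14 against 7.40 and 9.59, RFC3 had 10.09 and 11.13 against 9.06 and 10.63, and GINS2 had 7.80 and 9.12 against 6.84 and 8.63. ORC1 had 5.92 and 7.35 with siPSF against 5.17 and 6.76 with siControl. These rose by 0.83 (CDC45), 0.77 (RFC3), 0.72 (GINS2) and 0.67 (ORC1), with adjusted p of 0.0322, 0.0232, 0.0389 and 0.0454. The calls needed both treatments, because 0 genes passed without the vehicle arrays and 0 without the R1881 arrays of VCaP. Of 8 luminal markers 1 fell there, KLK3 (-0.55), and its part in the result was not tested.

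With siPSF in LNCaP set 3, 0 of 31 genes passed limma's test, against 2.92% of all genes lower and 1.39% higher. Of the 31, 15 had an unadjusted p under 0.05, against 2817 of all 13813 genes, and 27 were below 0, against 6816. The median was -0.31, with -0.12 in R1881 and -0.46 in vehicle. RRM2 came nearest, with 7.15 and 8.08 with siPSF against 7.75 and 8.81 with siControl (difference -0.67, SE 0.17, adjusted p = 0.0521). MCM10 had 6.87 and 7.79 against 7.26 and 8.80 (difference -0.70, SE 0.22), and CDC6 had 8.44 and 8.88 against 9.25 and 9.34 (difference -0.63, SE 0.20). The difference between the sets was tested after the data had been seen. For VCaP minus set 3, 9 genes had a higher siPSF difference, against 1.92% of all genes, 0 a lower one, against 1.18%, and the median was 0.66. They were RRM2 (1.53, SE 0.23, adjusted p = 0.0118), MCM10, CLSPN, CDC45, CDC6, GINS2, RFC3, RRM1 and FEN1, but only 0 to 2 of the 31 passed when the arrays of 1 treatment of either set were left out. Line, dose, serum and the set of arrays itself differ in this contrast and cannot be told apart.

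With siCTBP1-AS in VCaP 0 of 31 genes passed limma's test, against 0.956% of all genes lower and 0.847% higher. The unadjusted p was under 0.05 for 5 of the 31 and for 2291 of all 13813 genes. The median of the 31 was 0.09 (0.36 in R1881 and -0.12 in vehicle). The smallest p belonged to RRM2, with 8.30 and 9.25 with siCTBP1-AS against 7.54 and 8.85 with siControl (difference 0.58, SE 0.17, adjusted p = 0.12). CLSPN had 5.88 and 7.76 against 5.13 and 7.45 (difference 0.54, SE 0.22), and ORC1 had 5.76 and 6.95 against 5.17 and 6.76 (difference 0.39, SE 0.17). These VCaP values share their siControl arrays with the siPSF values above.

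In LNCaP set 1 the licensing gene CDC6 was the single gene of the 31 that fell with siCTBP1-AS, against 2.24% of all genes. Of the 31, 0 rose, against 2.48%, and 6 had an unadjusted p under 0.05, against 2465 of all 13813 genes tested. CDC6 had 7.92 and 8.20 with siCTBP1-AS against 9.04 and 9.45 with siControl, and fell by 1.18 (SE 0.20, 2.27-fold, adjusted p = 0.00765 by limma). RRM1 had 9.23 and 9.44 against 9.86 and 9.60 (difference -0.40, adjusted p = 0.15), and TYMS had 8.52 and 8.85 against 9.31 and 9.01 (difference -0.48, adjusted p = 0.166). The CDC6 difference was -1.11 in R1881 and -1.25 in vehicle, but 0 of the 31 genes passed without the vehicle arrays and 0 without the R1881 arrays of set 1. Of the marker lists, 1 of 8 luminal markers fell beside it (ACP3 at -1.36) and 1 of 2 tested leukocyte markers rose (CD68 at 1.63), and their part in the result was not tested.

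In LNCaP set 2, 9 of 31 genes fell with siCTBP1-AS, against 12.7% of all genes, 0 rose, against 9.79%, and the median was -0.26. MCM10 had 6.18 and 5.73 with siCTBP1-AS against 7.35 and 6.58 with siControl, and fell by 1.01 (SE 0.22, adjusted p = 0.00821 by limma). RRM2 had 6.33 and 6.28 against 7.53 and 7.02, and fell by 0.97 (SE 0.17, adjusted p = 0.00275). GINS1 had 7.77 and 7.78 against 8.73 and 8.65, and fell by 0.91 (SE 0.16, adjusted p = 0.003). In these genes, already called, both siCTBP1-AS arrays lay below both siControl arrays, and the share of all genes doing so was not computed. TK1 had 7.30 and 7.49 against 8.31 and 8.01, GINS2 had 8.48 and 8.44 against 9.46 and 8.89, and CDC6 had 7.42 and 6.95 against 8.54 and 7.19. CCNE1 had 6.75 and 7.03 against 7.34 and 7.79, and CDC45 had 6.75 and 6.49 against 7.63 and 6.90. They fell by 0.76 (TK1), 0.72 (GINS2), 0.68 (CDC6), 0.68 (CCNE1) and 0.64 (CDC45), and FEN1, the ninth, by 0.48 (SE 0.13, adjusted p = 0.0262). The count was 2 without the R1881 arrays and 7 without the vehicle arrays of set 2. Of 8 luminal markers 3 fell and 1 rose in the same comparison, with EPCAM at -1.38, HOXB13 at -0.68 and ACP3 at 0.94, and 0 of 3 basal, 0 of 4 fibroblast and 0 of 2 leukocyte markers passed. Their part in the result was not tested.

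Also tested after the data had been seen, the siCTBP1-AS difference of VCaP minus set 2, both at 1 nM and both with the marked siRNA, was higher for 7 genes, against 6.1% of all genes, and lower for 0, against 5.99%. They were RRM2 (1.55, SE 0.23, adjusted p = 0.0041), GINS1, CLSPN, CDC45, TK1, GINS2 and CCNE1, with a median over the 31 genes of 0.44. The count fell to 1 without the R1881 arrays of VCaP, to 3 without its vehicle arrays and to 3 without the R1881 arrays of set 2. Line, serum and the set of arrays itself differ here too and cannot be told apart.

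**Figure D5:**
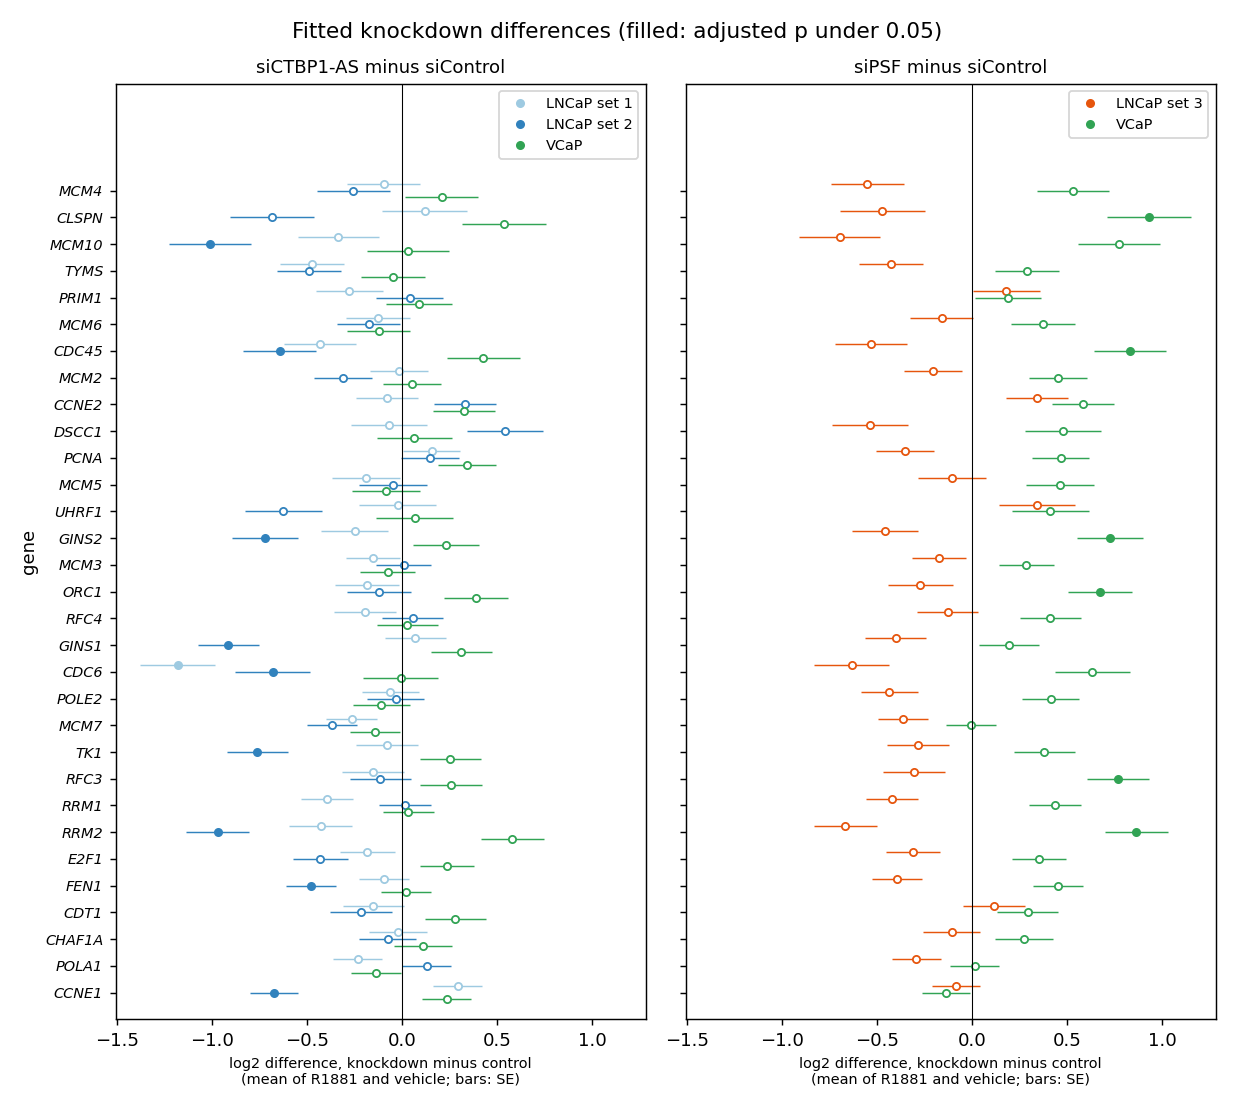
Fitted log2 difference of each knockdown minus siControl, averaged over R1881 and vehicle, for the 31 genes by set, with the SE as bars and filled points where limma's adjusted p was under 0.05. Filled points are 6 above 0 for siPSF in VCaP, and 9 (set 2) and 1 (set 1, CDC6) below 0 for siCTBP1-AS.

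Whether a knockdown altered the R1881 difference was tested with a product term over the sets that hold it. For siPSF 0 of 31 genes and 0 of all genes passed limma's test, with 4 and 187 at an unadjusted p under 0.05. The median of the 31 was 0.24, against 0.03 over all genes, and 30 of 31 were above 0, which means a smaller R1881 fall with siPSF. Below 0 were 1 of the 31 and 6189 of all 13813 genes. CCNE2 had the smallest p (0.55, SE 0.21, adjusted p = 1.00, 95% interval 0.08 to 1.03), followed by CHAF1A (0.46) and PRIM1 (0.49). For siCTBP1-AS 0 of 31 genes and 0 of all genes passed, with 0 and 445 at an unadjusted p under 0.05 and a median of 0.00. That median averaged sets that differed in sign. The R1881 difference had a median over the 31 genes of -1.23 with siCTBP1-AS and -1.61 with siControl in VCaP, of -0.15 and 0.12 in set 1, and of 0.04 and 0.31 in set 2, and the median of the product was -0.24 without VCaP, 0.11 without set 1 and 0.12 without set 2.

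Lists of other replication factors, mitosis genes and G1 regulators were read beside the 31 genes. In VCaP 43 of 50 tested other replication factors fell with R1881 and 1 rose. DTL, which marks CDT1 for degradation, fell by 2.59 (SE 0.22), EXO1, an exonuclease of DNA repair, fell by 2.03 (SE 0.14), and HELLS, a chromatin remodeler, fell by 1.80 (SE 0.14). Of 30 mitosis genes 26 fell, with MAD2L1, of the spindle checkpoint, at -1.26, NCAPG, a condensin subunit, at -1.07, and the kinase TTK at -1.05. Of 17 tested G1 regulators 4 fell and 2 rose, against 16.7% and 15.2% of all genes. CDKN1A, an inhibitor of cyclin-dependent kinases, rose by 0.70 (SE 0.10, adjusted p = 0.000499 by limma), SKP2, which marks such inhibitors for degradation, fell by 0.66 (SE 0.09), and CDKN2A fell by 0.67 (SE 0.13). The medians of the lists were -0.76, -0.62 and -0.04, against -1.40 for the 31 genes and 0.01 over all genes.

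In set 3, 20 other replication factors fell and 1 rose, 23 mitosis genes fell, and SKP2 was the 1 G1 regulator that fell (-0.53). Of all genes, 5.73% fell and 6.82% rose there. EXO1 was at -1.55, DTL at -1.48 and HELLS at -1.20, and among mitosis genes BUB1B was at -0.91, MAD2L1 at -0.84 and CDK1 at -0.81. In sets 1 and 2 the same lists held 2 rises each and 0 falls. The rises were ORC5 (0.84) and GMNN (0.72) in set 1 and ORC5 (1.08) and CDC25A (0.89) in set 2, all other replication factors. Over all genes 2.42% rose and 1.04% fell in set 1, and 4.47% rose and 3.54% fell in set 2. ORC5 is an origin recognition subunit, GMNN holds back CDT1 and CDC25A is a phosphatase that activates cyclin-dependent kinases. For VCaP minus set 2, 36 other replication factors, 19 mitosis genes and 2 G1 regulators had a lower R1881 difference, and CDKN1A a higher one (1.07). In this contrast 4.66% of all genes were lower and 3.14% higher.

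With siPSF 15 of 30 mitosis genes fell in set 3, against 2.92% of all genes, while 0 of the 31 genes passed. TTK was at -0.78, DLGAP5 at -0.66 and CENPE at -0.66. In VCaP 16 of 30 mitosis genes rose, with ANLN at 0.84, NCAPG at 0.73 and KIF23 at 0.66. Beside them 6 of 50 other replication factors rose, among them E2F7 at 1.21, against 2.32% of all genes. The siPSF difference of VCaP minus set 3 was higher for 25 of 30 mitosis genes, against 1.92% of all genes. How the counts of these lists depend on single arrays was not tested. With siCTBP1-AS in set 2, 9 mitosis genes fell, with MKI67 at -1.03, KIF20A at -0.76 and FOXM1 at -0.71, against 12.7% of all genes. In set 1, 0 of 30 mitosis genes passed with siCTBP1-AS, and in VCaP 1 did, AURKA, a mitotic kinase, which rose by 0.52 (SE 0.10, adjusted p = 0.037 by limma). Of 50 other replication factors 7 fell and 4 rose in set 2, near the 12.7% and 9.79% of all genes, and 5 of 17 G1 regulators fell, CDKN1A at -0.50 among them.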

How the data were processed

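Total RNA labelled with biotin was measured on 18 whole-transcript arrays, 12 of LNCaP and 6 of VCaP, in 12 groups of line, siRNA and treatment. Per transcript cluster the authors deposited a log2 signal, for which the submitters' processing notes name Affymetrix Expression Console 1.1.1 and RMA. The sources used here do not say which arrays were normalized together. Sets follow the array names in the labels.

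Of 33297 clusters, 19460 had 1 gene symbol, 1754 several and 12083 were not listed in the platform annotation. Each of 18417 genes was read from its brightest cluster (mean of all 18 arrays), and the 25% of genes with the lowest mean were left out. CLSPN and UHRF1 have a second cluster, and in both it differed from the one used. That of UHRF1 was at 0.75 where the one used gave -1.82 (VCaP siControl, R1881 minus vehicle). That of CLSPN was at -1.54 against -2.32 in the same pair, and at -0.03 against 0.84 in the siCTBP1-AS pair of set 2.

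Tests used limma 3.58.1 in R 4.3.3 (statmod 1.5.0) over all 13813 genes, with Benjamini-Hochberg adjustment at 0.05. R1881 was fitted per set with the 9 array pairs as blocks, which leaves 5 residual degrees of freedom, and knockdowns per set with blocks of set and treatment, also 5. Product terms left 6, and the 3 against 3 LNCaP siControl comparison, unpaired, 4. All sets share 1 estimate of spread. The scripts were tested on simulated data. Alternatives were no filter, the mean of all clusters, median centring, quantile normalization, a trended robust variance, only the arrays of a set, and leaving out array pairs or treatments.

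The replicate numbers of the LNCaP siControl arrays pair them, since same-numbered arrays share a set. After subtracting group means, arrays with the same number had a Pearson r of 0.79, 0.84 and 0.70, and arrays with different numbers -0.64 to -0.09.

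Every member is named, and array values are given in full for up to 8 genes per comparison, those called with the largest change, or the 3 with the smallest p where fewer than 3 were called. CCNE1 in VCaP and CDC6 in set 3 were added after their values had been seen. Of other lists, the 3 called genes with the largest change may be named. Members, lists and tests were chosen with earlier results of these data known. Some genes of the marker and gene lists are not reported here.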

Additional observations from a re-analysis of the deposited data

Results flagged for a closer look

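Differences between groups in response were themselves tested, and 3 contrasts had genes that passed limma's test. These genes are listed with their log2 difference of differences. For R1881 in LNCaP set 3 minus set 1 and in set 1 minus set 2, 0 of the 31 genes passed. The R1881 difference was lower in VCaP than in LNCaP set 2, both at 1 nM, for 28 genes. Those beyond -1.75 were CLSPN (-2.58), MCM10 (-2.50), MCM4 (-2.28), CDC45 (-2.23), CDC6 (-2.17), TYMS (-1.93), UHRF1 (-1.89), MCM6 (-1.85), MCM5 (-1.85), POLE2 (-1.80), MCM2 (-1.79) and GINS2 (-1.77). The next were PRIM1 (-1.74), DSCC1 (-1.71), RFC3 (-1.62), ORC1 (-1.60), PCNA (-1.53), MCM3 (-1.48), RFC4 (-1.45) and GINS1 (-1.36). The smallest were those of MCM7 (-1.36), FEN1 (-1.31), RRM2 (-1.29), TK1 (-1.24), E2F1 (-1.20), CCNE2 (-1.17), RRM1 (-1.12) and CDT1 (-0.98).

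The siPSF difference was higher in VCaP than in LNCaP set 3 for RRM2 (1.53), MCM10 (1.47), CLSPN (1.40), CDC45 (1.36), CDC6 (1.27), GINS2 (1.18), RFC3 (1.07), RRM1 (0.86) and FEN1 (0.85). The siCTBP1-AS difference was higher in VCaP than in LNCaP set 2 for RRM2 (1.55), GINS1 (1.23), CLSPN (1.22), CDC45 (1.07), TK1 (1.02), GINS2 (0.95) and CCNE1 (0.91). Both of these contrasts were added after the array values had been seen, and all 3 were chosen with earlier results of these data known. Without the arrays of 1 treatment the counts were 0 to 2 for siPSF and 1 to 7 for siCTBP1-AS.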

How the results depend on the processing

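The falls with R1881 in VCaP held in 30 or 31 of 31 genes under all 9 alternatives, the lower count without the siControl pair, and those of VCaP minus set 2 in 25 to 30. For R1881 in LNCaP set 3 the count of 26 became 1 to 17 when a pair was left out, with a median of -1.05 to -0.55. For R1881 in set 2, 1 gene rose with no filter, 1 with quantile normalization, 0 with only the arrays of the set and 0 to 2 without a pair. For set 3 minus set 1, 1 gene passed with centred arrays, with quantile normalization and with the trended robust variance. The same 3 settings each gave 1 gene lower with siPSF in set 3. For set 1 minus set 2, 0 to 1 passed without a pair. With siCTBP1-AS, 14 genes fell in set 2 under the trended robust variance and 2 to 7 without the arrays of 1 treatment, and 0 fell in set 1 (0 to 0). With siPSF in VCaP 0 rose (0 to 0) without the arrays of 1 treatment. The siPSF difference of VCaP minus set 3 passed in 5 genes with no filter and in 0 to 2 without the arrays of 1 treatment, and the siCTBP1-AS difference of VCaP minus set 2 in 1 to 7. Fewer arrays entered where pairs or treatments were left out; otherwise the cause was not tested. With the replicate block, in which the LNCaP siControl arrays are paired, 0 of 31 genes passed, as without it, while calls over all genes were 333 lower and 401 higher, against 4 and 31 without the block. Over all genes the falls with R1881 numbered 2313 in VCaP (1191 to 2446 over the alternatives) and 792 in set 3 (56 to 1205). With 1 array for each siRNA and treatment, no comparison within a set had true replicates.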
